A study of Mus musculus with 2 samples.

Results

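In cultures of mouse embryonic stem (ES) cells, 304 of 3407 kept cells carried fewer than 5% of their transcripts on ribosomal protein (RP) genes. The cells came from 1 wild-type and 1 Lin28a knockout library made with inDrop, a method that captures single cells in droplets with barcoded primers and tags each captured transcript with a unique molecular identifier (UMI). A barcode was kept with at least 500 UMIs, at most 20% of them mitochondrial, and a share of Col1a1, Col1a2 and Col3a1 under 0.3%, which set aside the collagen-rich cells of the feeder layer. The low-RP cells were chosen by their own UMI counts on 90 RP genes, so every difference between them and the other kept cells is given here as a description, with no test. They were 83 of 1808 wild-type cells (4.59%, exact binomial 95% interval 3.67 to 5.66) and 221 of 1599 knockout cells (13.8%, 12.2 to 15.6), out of 10389 barcodes in the files.

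The study asked how the RNA-binding protein LIN28A affects the nucleolus, the ribosome and the early embryonic transcripts of pluripotent cells. Both libraries were of ES cells from the inner cell mass, untreated, grown for 2 days in LIF/2i medium on gelatin with mouse embryonic fibroblast (MEF) feeders. The knockout was made with CRISPR/CAS9 against the second exon of Lin28a and puromycin selection. Per the study's methods the wild-type library was of clone a2.1 and the knockout library of clone a3.5. Each genotype was 1 clone and 1 library, so genotype, clone and library cannot be told apart. Sequencing gave 12079546 UMIs in 4329 wild-type barcodes and 10027710 UMIs in 6060 knockout barcodes. Barcodes are numbered from 1 in both files, so the shared labels do not show shared cells. All intervals below are at 95% and cover counting error only.

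An RP-poor transcriptome can be read through where RNAs reside. Messages for ribosomal proteins, glycolytic enzymes and the cytoskeleton are abundant in the cytoplasm, whereas Malat1 and Neat1 are long noncoding RNAs held in the nucleus at splicing speckles and paraspeckles, and mitochondrial transcripts lie inside the organelle. ES cells are rich in RP messages and divide quickly.

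Lin28a, the targeted gene, was at 111 CPM (UMIs per 1e6 UMIs of the same cells) in kept wild-type cells (1239 UMIs) and at 36.9 CPM in kept knockout cells (340 UMIs). In the low-RP cells it had 8 UMIs in each library, 106 CPM (45.6 to 208) in wild-type and 26.1 CPM (11.3 to 51.4) in knockout cells. Lin28a transcripts were lower but present in the library labelled knockout.

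The low-RP cells were shallow. Their depth ran from 501 to 3737 UMIs with a median of 789 in the wild-type library, where the other cells had a median of 6247. In the knockout library it ran from 504 to 5268 UMIs with a median of 1194, against 6120.5 in the other cells. They held 75676 UMIs, or 0.675% of all UMIs of kept wild-type cells, and 306688 UMIs, or 3.32%, of kept knockout cells. A comparison within bounds of 1000 to 5000 UMIs took 23 low-RP and 447 other wild-type cells and 140 and 342 knockout cells. These bounds narrowed the gap in depth but did not close it, since the median was 1299 UMIs in low-RP against 4001 in other wild-type cells and 1518 against 3095 in knockout cells. Thinned to 500 UMIs per cell, low-RP cells showed a median of 385 genes against 422 in wild-type and 416 against 418 in knockout cells. The plot of depth and RP share shows that nearly all cells above 5000 UMIs lay above the RP limit, with 0 of 1196 wild-type cells (exact upper limit 0.308%) and 1 knockout cell below it.

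**Figure D1:**
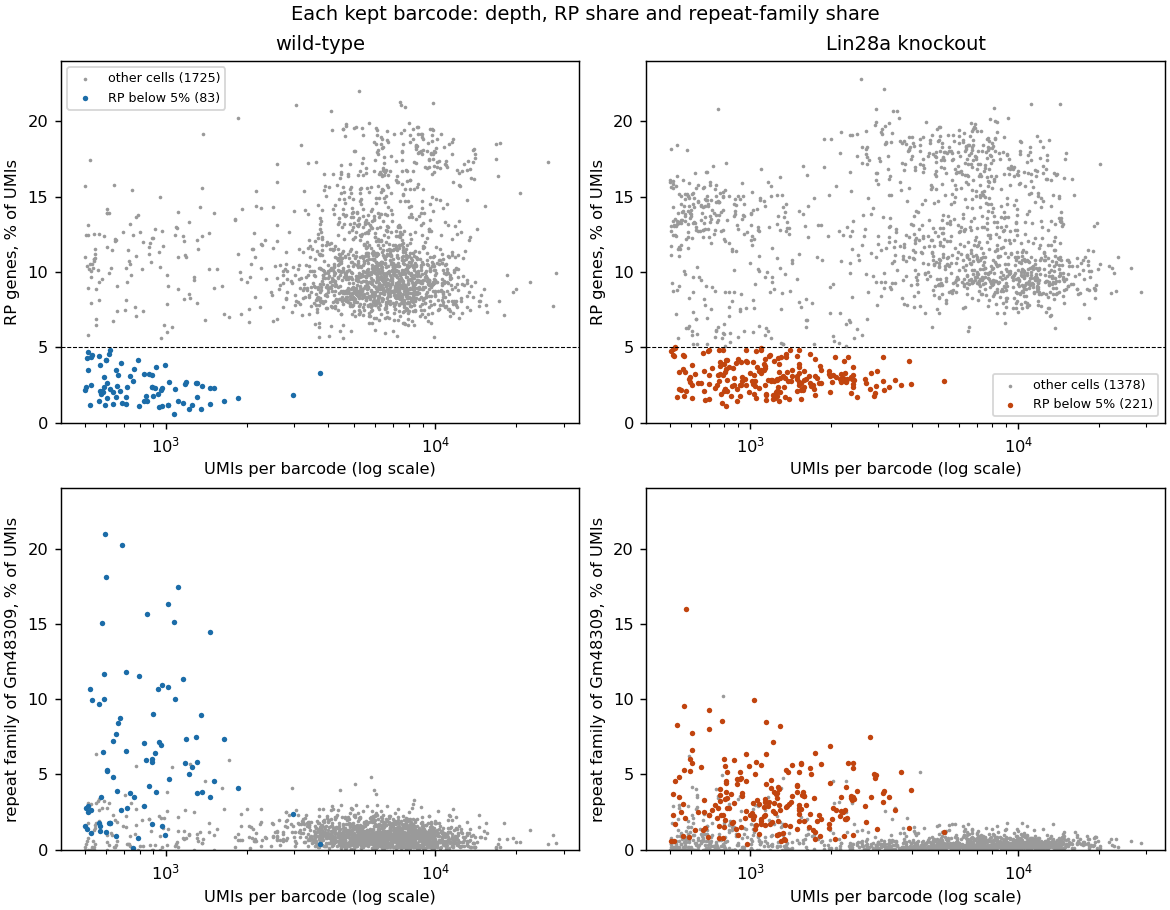
Each point is a kept barcode, placed by its UMIs (log scale) and by its percent of UMIs on RP genes (top) or on the repeat family of Gm48309 (bottom), for the wild-type (left) and the knockout library (right). The dashed line is the RP limit of 5%, colored points are the 83 and 221 low-RP cells, and grey points are the other cells, which reach greater depths and of which 95% have at most 2.24% (wild-type) and 1.68% (knockout) of their UMIs in the family.

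Malat1, the marker given for these cells, was higher in them in both libraries. Its summed level was 18236 CPM in low-RP and 3721 CPM in other wild-type cells, a ratio of 4.90 (4.64 to 5.17). In the knockout library the levels were 7405 and 1515 CPM, a ratio of 4.89 (4.67 to 5.11). The size depends on the settings, since an RP limit of 7% gave 2.57 in wild-type and 4.48 in knockout, and scaling CPM to a median gene ratio of 1 gave 9.44 and 7.83. Per cell, its share ran from 0 to 6.03% of UMIs with a median of 1.196% in wild-type low-RP cells, against a median of 0.327% in other cells. The knockout medians were 0.511% and 0.0976%, and 4 wild-type and 11 knockout low-RP cells had no Malat1 UMI. At 1000 to 5000 UMIs the ratios were 5.70 (5.29 to 6.13) and 4.81 (4.49 to 5.15). Of these, cells of 1000 to 2000 UMIs gave 3.77 (3.22 to 4.41) and 3.37 (2.95 to 3.85), and cells of 2000 to 5000 UMIs 13.1 (11.8 to 14.6) in wild-type and 4.88 (4.45 to 5.35) in knockout. The wild-type value of 13.1 rests on 2 cells, 1 of them rich in fibroblast genes. The ranges of single cells overlapped, since other cells reached 2.85% in wild-type and 1.87% in knockout. Neat1, the other marker, had only 14 and 74 UMIs, at 185 against 39.0 CPM (ratio 4.75, 2.57 to 8.05) and 241 against 34.4 CPM (7.01, 5.36 to 9.06). Within 1000 to 5000 UMIs the wild-type Neat1 ratio of 2.27 rested on 4 UMIs, with an interval of 0.606 to 6.04. Malat1 was thus higher in both libraries, and Neat1 over all depths with few counts. This does not check the marker label, since the cells were chosen with earlier results of these data known. Malat1 does not set these cells apart from feeders, since the collagen-rich cells left out had 23810 CPM in wild-type (48 cells) and 10059 CPM in knockout (23 cells).

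inDrop primes on poly(A), and Malat1 carries stretches of A within its transcript, so 2 pieces of it are shown here from GRCm38, the mm10 build, minus strand. The first is its longest run of A, 12 bases in capitals, at chr19:5795958-5796029. The second, at chr19:5801998-5802095, is the longest stretch Malat1 shares with Saa3, the gene whose per-cell share followed that of Malat1 most closely among low-RP knockout cells. Its middle 31 bases, in capitals, occur in 373 annotated genes, so reads from it are hard to place.
Malat1, longest A run: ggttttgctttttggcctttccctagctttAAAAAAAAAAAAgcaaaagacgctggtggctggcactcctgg
Malat1, stretch shared with Saa3: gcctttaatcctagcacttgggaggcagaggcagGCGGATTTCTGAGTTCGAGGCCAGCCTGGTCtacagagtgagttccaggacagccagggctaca

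Of 18 listed nuclear RNAs, 4 had enough counts to be compared, Malat1 among them, and these 4 were at least 2-fold higher in both libraries, against 10% (wild-type) and 16.3% (knockout) of all genes compared. Of the 6 compared long intergenic noncoding RNAs outside the named classes, 4 in wild-type and 2 in knockout cells were 2-fold higher. Meg3, a maternally expressed imprinted RNA, stood at 1903 against 616 CPM in wild-type and 1412 against 415 CPM in knockout cells. Rian, from the same imprinted domain, stood at 647 against 179 and 414 against 72.8 CPM. Kcnq1ot1, which silences genes of its imprinted domain, was 2.11-fold higher (1.62 to 2.71) in wild-type and 3.63-fold higher (3.30 to 3.98) in knockout low-RP cells. Among RNAs below the count filter, Lncenc1, with 3 and 7 UMIs, had ratios of 0.598 (0.123 to 1.75) and 0.218 (0.0875 to 0.451).

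One wild-type low-RP cell stood apart and bears on these values. It had 3737 UMIs, an RP share of 3.26%, 223 Malat1 UMIs, and 22 UMIs of Lgals1, S100a6, Acta2 and Tagln, genes common in fibroblasts. It also had 17 UMIs of Vim and 18 of Sparc, but 0 of Pou5f1, Zfp42, Dppa5a, Col1a1, Col1a2 and Col3a1. Without this cell Malat1 in wild-type low-RP cells stood at 16083 CPM, a ratio of 4.32 (4.07 to 4.58), and at 1000 to 5000 UMIs the ratio became 4.61 (4.23 to 5.02). S100a6 and Tagln went to 0 UMIs without it, and the 4 genes together stood at 357 CPM with it and 69.5 CPM without it, against 94.3 CPM in other cells. A list of 16 fibroblast genes stood at 1176 CPM with that cell and 612 CPM without it, against 754 CPM in other wild-type cells, so its ratio went from 1.56 (1.25 to 1.92) to 0.812 (0.589 to 1.09). In the knockout library no low-RP cell had 5 or more UMIs of those 4 genes, and the list stood at 906 against 724 CPM, a ratio of 1.25 (1.11 to 1.41) that became 1.05 (0.904 to 1.22) at 1000 to 5000 UMIs. It was led in knockout cells by Fn1 at 753 against 365 CPM while Vim was at 97.8 against 239 CPM. Collagen UMIs occurred in 5 wild-type (6.02%) and 9 knockout (4.07%) low-RP cells, against 12.1% and 11.9% of the deeper other cells. Per UMI the collagens went the other way, at 79.3 CPM (6 UMIs) against 21.8 CPM in wild-type and 42.4 CPM (13 UMIs) against 27.2 CPM in knockout. Of the collagen-rich cells left out, 8 of 48 in wild-type and 11 of 23 in knockout were also under 5% RP. Among kept cells that share was 4.59% and 13.8%. The part of feeder RNA in the remaining low-RP cells was not tested.

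Markers of ES cells were present, and all but Sox2 of the 7 used were lower per UMI, to unlike degrees. Pou5f1, the core pluripotency factor Oct4, was at 132 CPM in wild-type low-RP cells against 874 CPM in other cells, and at 251 against 1051 CPM in the knockout library. Dppa5a stood at 264 against 1256 CPM and 401 against 1466 CPM. Zfp42 differed less, at 383 against 730 CPM and 453 against 562 CPM. At 500 UMIs per cell Zfp42 was seen in 19.2% of knockout low-RP cells against 21.2% of other cells. Sox2, the partner of Oct4, went the other way, at 330 against 163 CPM and 222 against 89.0 CPM. At 500 UMIs per cell, 48.2% of wild-type low-RP cells had a UMI of at least 1 of 7 ES markers, against 84.0% of other cells and 15.7% of collagen-rich cells, which should lack them. The knockout shares were 56.5%, 84.1% and 21.3%. Unthinned, at median depths of 789 and 1194 UMIs, 63.9% and 81.0% of low-RP cells had such a UMI, against 47.9% and 43.5% of collagen-rich cells at 8131.5 and 2295 UMIs. Both measures lay between those of the other ES cells and the collagen-rich cells when thinned. Markers of other lineages were scarce, with 1 and 10 UMIs of the primitive endoderm list, 2 and 30 of the primed epiblast list and 4 and 17 of the trophoblast list in wild-type and knockout low-RP cells. Of 29 genes of the 2-cell embryo program, such as the Zscan4 genes, low-RP cells had 0 UMIs in wild-type and 1 UMI in knockout. For the 0 UMIs the exact upper limit is 48.7 CPM, and a floor of 3 counts is 39.6 CPM. The other cells had 3.77 and 4.04 CPM of this list, so a difference was not detectable at this depth.

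The whole transcriptome was next divided by kind of transcript. RP genes took 2.305% of UMIs in wild-type low-RP cells against 11.0% in other cells and 2.98% against 12.1% in knockout cells, which the choice of cells fixed. Genes that share sequence with RP genes, mostly their processed pseudogenes, were lower with them, at 2.70% against 9.17% and 3.91% against 11.0%, and reads could be split between both kinds. Other protein-coding genes still made up most of the RNA, 60.5% against 68.1% in wild-type and 66.8% against 65.2% in knockout cells. The classes with a larger share were noncoding, mitochondrial and repeated transcripts, and since shares sum to the whole, they are not independent of the RP share. Long intergenic noncoding RNAs outside the classes named here were 3.59-fold (3.44 to 3.74) and 3.04-fold (2.97 to 3.12) higher. Transcripts annotated as TEC, models that still await an experiment, were 3.85-fold and 3.98-fold higher outside the classes named here. All TEC transcripts together were 4.66-fold and 4.72-fold higher. Pseudogenes outside the RP and repeat classes were lower, with ratios of 0.680 and 0.729.

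**Figure D2:**
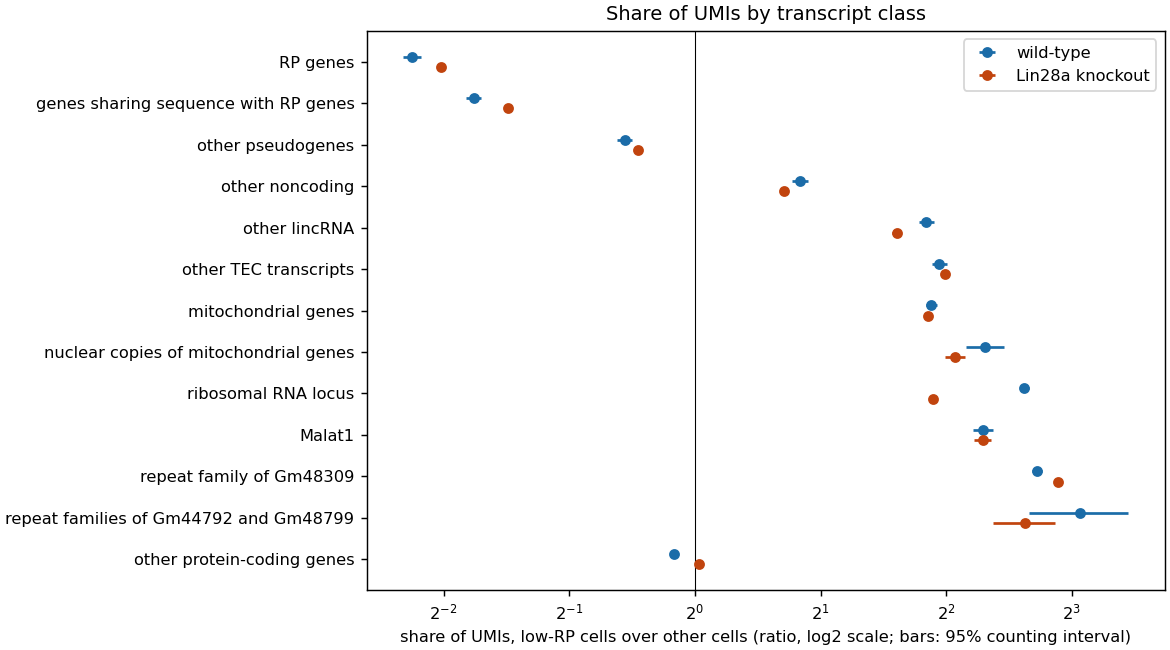
The horizontal axis gives the share of UMIs in low-RP cells over that in other cells (ratio on a log2 scale) for each class of transcript, with the exact counting interval as a bar (many are narrower than the point). Blue is wild-type and orange knockout, and 9 noncoding, mitochondrial or repeat classes lie right of 1 in both libraries, the RP genes, their relatives and other pseudogenes lie left of it, and other protein-coding genes lie at 0.889 and 1.02.

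Mitochondrial transcripts took 4.95% of UMIs in wild-type low-RP cells against 1.34% in other cells (ratio 3.69, 3.57 to 3.81) and 6.15% against 1.70% in the knockout library (3.62, 3.56 to 3.67). The limit of 20% bounded this share, and single low-RP cells ran from 0.472 to 19.8% in wild-type and from 0.209 to 19.9% in knockout. Cells of 1000 to 2000 UMIs gave ratios of 4.26 in wild-type and 2.77 in knockout. At 2000 to 5000 UMIs the ratios were 0.828 (0.659 to 1.03) in wild-type, on 2 low-RP cells, and 3.80 in knockout. The mitochondrial genes were not alike. Among the ribosomal RNAs of the organelle, mt-Rnr1 stood at 8166 against 1108 CPM (7.37-fold) in wild-type and 3437 against 526 CPM (6.54-fold) in knockout, and mt-Rnr2 was 5.58-fold and 7.80-fold higher. mt-Co2, a subunit of cytochrome oxidase, stood at 7162 against 1160 CPM and 15455 against 2314 CPM, ratios of 6.17 (5.66 to 6.73) and 6.68 (6.47 to 6.89). mt-Nd2, a subunit of complex I, was only 1.42-fold (1.196 to 1.68) and 1.13-fold (1.02 to 1.25) higher. Of 11 protein-coding mitochondrial genes compared, 8 were at least 2-fold higher in each library, against 10% and 16.3% of all genes compared, and 0 were 2-fold lower. The 7 nuclear copies of mitochondrial genes on chromosome 1 hold 97.2 to 100% of their 31-base words in mitochondrial genes. These copies were 4.96-fold and 4.21-fold higher over all depths and 2.53-fold and 2.73-fold at 1000 to 5000 UMIs. Reads of the copies and of the mitochondrial genes cannot be told apart here.

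The nuclear-encoded subunits of the same respiratory chain were lower. Of 28 compared, 26 were at least 2-fold lower in each library, against 48.5% and 39.9% of all genes compared, with a median ratio of 0.267 in wild-type and 0.302 in knockout cells. Transcript length was not matched. Of the 270 protein-coding genes in the shortest of 4 length groups, 213 in wild-type and 183 in knockout were at least 2-fold lower. Cox5a stood at 119 against 685 CPM and 160 against 625 CPM, Cox4i1 at 172 against 619 CPM and 173 against 631 CPM. Atp5e had 1 and 5 UMIs, with ratios of 0.0881 (0.00223 to 0.491) and 0.102 (0.0331 to 0.239). Lars2, the leucyl-tRNA synthetase of mitochondria, ran against them at 1150 against 200.1 CPM and 1037 against 170 CPM.

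Reads at the annotated ribosomal RNA locus on chromosome 17 were higher too, but not equally in the libraries. They took 9.13% of UMIs in wild-type low-RP cells against 1.49% in other cells (ratio 6.15, 6.002 to 6.30) and 4.02% against 1.08% in the knockout library (3.72, 3.65 to 3.79). At 1000 to 5000 UMIs the ratios were 4.69 (4.51 to 4.88) and 3.07 (2.99 to 3.16). The wild-type median of the 3 genes of the locus went from log2 2.62 over all depths to 0.747 within these bounds. Most reads of the locus were on Gm42418 (chr17:39846958-39848788, plus strand), at 78625 against 12759 CPM and 36581 against 8818 CPM over all depths. The model overlaps CT010467.1, an rRNA gene, and AY036118 on the minus strand, and whether counting used strand is not given in the sources used here. In 1 wild-type low-RP cell the locus took 66.8% of UMIs and in another, within 1000 to 5000 UMIs, 55.3%, while the median was 7.78%. The reads at this locus are poly(A)-primed reads of rRNA sequence and do not measure the amount of rRNA.

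Among single genes compared, the largest ratios in both libraries belonged to a family of repeated transcripts, named here by Gm48309, its member with most UMIs. It was built from sequence alone, without counts, as 89 annotated genes on 16 chromosomes that are joined by shared words of 31 bases. Of these, 51 are annotated as processed pseudogenes and 11 as TEC. The same rule gave 73 families, and this one was not chosen among them blind to its values. Its ratios are thus a description, with no separate support from how it was built. Several of its genes hold long open reading frames, of 1281 codons in Gm47164 and in Gm17131, 371 codons in Gm48309 and 385 codons in Gm17132, which ends 40 bases before Gm17131 on chromosome 5. No annotation of repeats was used here, so the family is given no repeat name. The word of 31 bases of Gm48309 that most members hold occurs in 36 of the 89 genes. It is shown in capitals, with 40 bases on each side on the strand of the gene in GRCm38, to let the likeness of members be seen, at chr12:13423348-13423458 (minus) for Gm48309, at chr10:103211435-103211545 (minus) for Gm47164 and at chr12:63170717-63170827 (plus) for Gm48415, which differ from the first at 1 and 5 positions. The window of Gm47457 is identical to that of Gm48309. With windows this alike, a read can fit several members, so the sum over the family is firmer than the value of any 1 gene.
Gm48309: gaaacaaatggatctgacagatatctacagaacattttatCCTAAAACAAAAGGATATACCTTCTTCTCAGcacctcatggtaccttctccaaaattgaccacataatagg
Gm47164: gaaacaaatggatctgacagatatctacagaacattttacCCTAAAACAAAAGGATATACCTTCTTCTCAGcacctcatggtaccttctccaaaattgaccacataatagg
Gm48415: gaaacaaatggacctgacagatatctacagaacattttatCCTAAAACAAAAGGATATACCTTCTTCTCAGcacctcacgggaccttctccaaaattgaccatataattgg

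Summed over its genes, the family took 6.33% of UMIs in wild-type low-RP cells against 0.959% in other cells, a ratio of 6.61 (6.42 to 6.80). In the knockout library it took 3.32% against 0.448%, a ratio of 7.40 (7.24 to 7.57). Per cell the share ran from 0.133 to 20.97% with a median of 5.52% in wild-type low-RP cells, and from 0.414 to 16.0% with a median of 3.04% in knockout ones, so no low-RP cell was without it. The medians of the other cells were 0.887% and 0.351%. At 1000 to 5000 UMIs the ratios were 5.90 (5.65 to 6.17) and 6.36 (6.15 to 6.59). Of these, cells of 1000 to 2000 UMIs gave 5.07 (4.70 to 5.48) in wild-type and 3.54 (3.32 to 3.78) in knockout. Cells of 2000 to 5000 UMIs gave 1.14 (0.909 to 1.41) in wild-type, on 2 low-RP cells, and 7.29 (6.97 to 7.63) in knockout. Among the 19 members with enough counts, Gm37158 led by ratio, at 7228 against 604 CPM (11.97, 10.9 to 13.1) and 3156 against 261 CPM (12.1, 11.2 to 13.0). Gm48309 stood at 8563 against 1778 CPM (4.82, 4.45 to 5.21) and 6691 against 1006 CPM (6.65, 6.34 to 6.98). Of the 19 members with enough counts, 19 were at least 2-fold higher in wild-type and 18 in knockout low-RP cells, against 10% and 16.3% of all genes compared, the exception being Gm47578 at 1.66. The other members had too few counts to be compared one by one and enter the sum only. A pair of other families, of Gm44792 and Gm48799, took fewer UMIs, at 0.0766% against 0.00914% (ratio 8.38, 6.32 to 10.9) and 0.0548% against 0.00889% (6.16, 5.18 to 7.29). This pair held 1031 annotated genes, of which 37 in wild-type and 34 in knockout had a UMI in kept cells.

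Across all transcripts, 1377 genes outside the RP set had an expected count of at least 10 in the low-RP cells of both libraries. In wild-type cells 138 of them (10%) were at least 2-fold higher and 668 (48.5%) at least 2-fold lower in low-RP cells. In the knockout library 225 (16.3%) were higher and 550 (39.9%) lower, and 119 were higher and 488 lower in both. The median gene was at -0.95 on the log2 scale in wild-type and -0.68 in knockout. With CPM rescaled so that this median ratio is 1, the counts became 356 higher and 278 lower in wild-type and 379 and 267 in knockout. At 1000 to 5000 UMIs, of 478 genes, 54 (11.3%) were higher and 267 (55.9%) lower in wild-type and 90 (18.8%) higher and 207 (43.3%) lower in knockout. Across the 1377 genes the log2 ratios of the 2 libraries had r = 0.87 as a description, with genes not being independent replicates and depth differences shared by both.

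**Figure D3:**
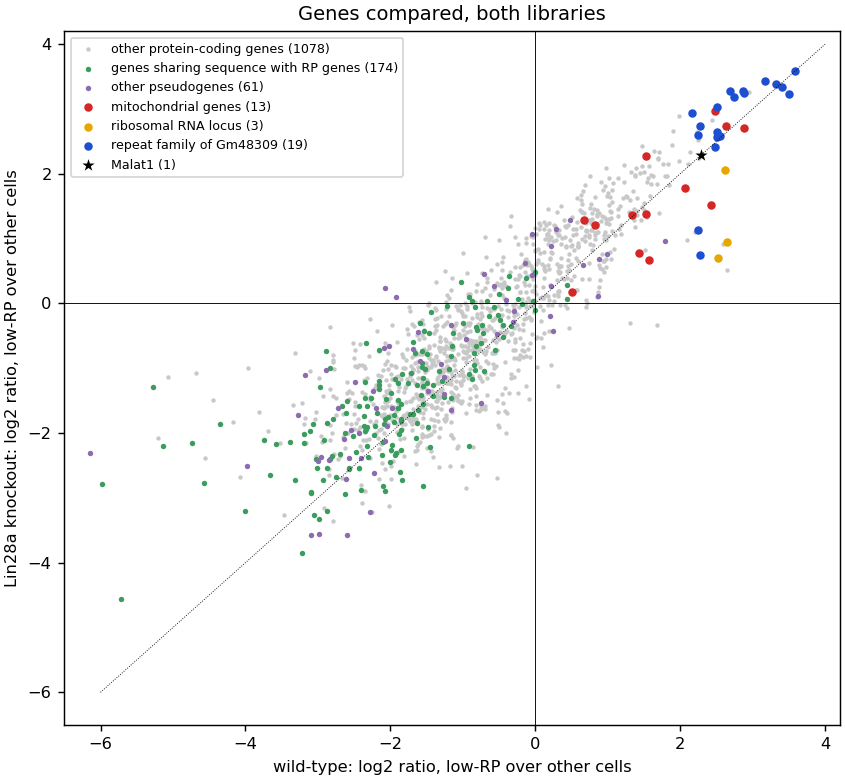
Each point is 1 of the genes compared, with the log2 ratio of CPM in low-RP over other cells in the wild-type library on the horizontal and in the knockout library on the vertical axis; the dotted line marks equal ratios. Malat1 and 18 of the 19 members of the repeat family lie above 1 on both axes, most genes that share sequence with RP genes lie at the lower left, and the 3 genes of the ribosomal RNA locus lie below the line.

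The 15 genes with the largest ratio in both libraries were nearly all of the classes above. Of these, 10 were of the repeat family and 2 were mitochondrial, mt-Rnr1 and mt-Co2. Of the other 3, Gm42669 (7.73-fold and 9.58-fold) shares 14.9% of its 31-base words with the family and Gm29055 (5.90-fold and 8.76-fold) 38.6%. This left Lars2 (5.75-fold and 6.10-fold), with 0% shared with the family. Sharing of words between these genes and the ribosomal RNA locus was not counted. The 15 smallest ratios were of 8 genes that share sequence with RP genes, 2 other pseudogenes, 2 noncoding models and 3 protein-coding genes. Rplp1-ps1, a pseudogene of an RP gene, had 0 UMIs in wild-type low-RP cells (exact upper limit 48.7 CPM, floor of 3 counts 39.6 CPM). It stood at 347 CPM in other wild-type cells, and at 16.3 against 422 CPM in knockout. Of the protein-coding ones, Gm5244 had 3 and 11 UMIs, with ratios of 0.124 (0.0256 to 0.363) and 0.0936 (0.0467 to 0.168), and Atp5e is given above.

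Ranked among protein-coding genes only, a ranking added after the values were seen, the top 15 had transcripts from 1148 to 23279 bases and mixed roles. Pnisr, an SR-related protein of speckles, was at 714 against 147 CPM in wild-type and 587 against 119 CPM in knockout cells. Spen, a large repressor, was at 714 against 164 CPM and 900 against 178 CPM. Ankrd11, a chromatin regulator, was at 1493 against 405 CPM and 1640 against 300.5 CPM. Dst, a giant cytoskeletal linker, was 4.76-fold (3.68 to 6.08) and 4.72-fold (4.01 to 5.54) higher. Syt11, Taf1d, Ilf2 and Saa3 also ranked high but share 34 to 72 of their 31-base words with Malat1, and Olfr46 shares 26.3% of its words with the repeat family, so their reads are uncertain. The genes at the bottom were also mixed, with Sdhc, a subunit of succinate dehydrogenase, at 3171 bases and Tmem258 at 606 bases. Gapdh, of glycolysis, was at 727 against 3944 CPM and 1011 against 5942 CPM. Tuba1b, an alpha-tubulin, was at 277 against 1506 CPM and 316 against 1660 CPM. Snrpe and Snrpd2, small proteins of the spliceosome core, had ratios of 0.135 (0.0279 to 0.396) and 0.152 (0.0184 to 0.549) in wild-type and 0.147 and 0.136 in knockout cells.

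Among protein-coding genes, ratios were higher for longer transcripts in both libraries. Over 1078 protein-coding genes, the log2 ratio and the length of the longest coding transcript had a Spearman rho of 0.60 in wild-type and 0.64 in knockout, again as a description across genes of the same libraries. In the shortest of 4 equal groups, from 371 to 1664 bases, the median ratio was 0.336 in wild-type and 0.382 in knockout. In the longest group, from 4365 to 123179 bases, it was 1.198 and 1.69. Of the 270 genes in each of these groups, 1 and 4 of the short ones were 2-fold higher and 59 and 115 of the long ones, against 10% and 16.3% of all genes compared. Genes with a run of at least 12 A in a transcript had higher medians than those without in every length group, for example log2 1.12 against 0.59 among long genes in the knockout library. The part of priming within transcripts in these values was not tested.

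**Figure D4:**
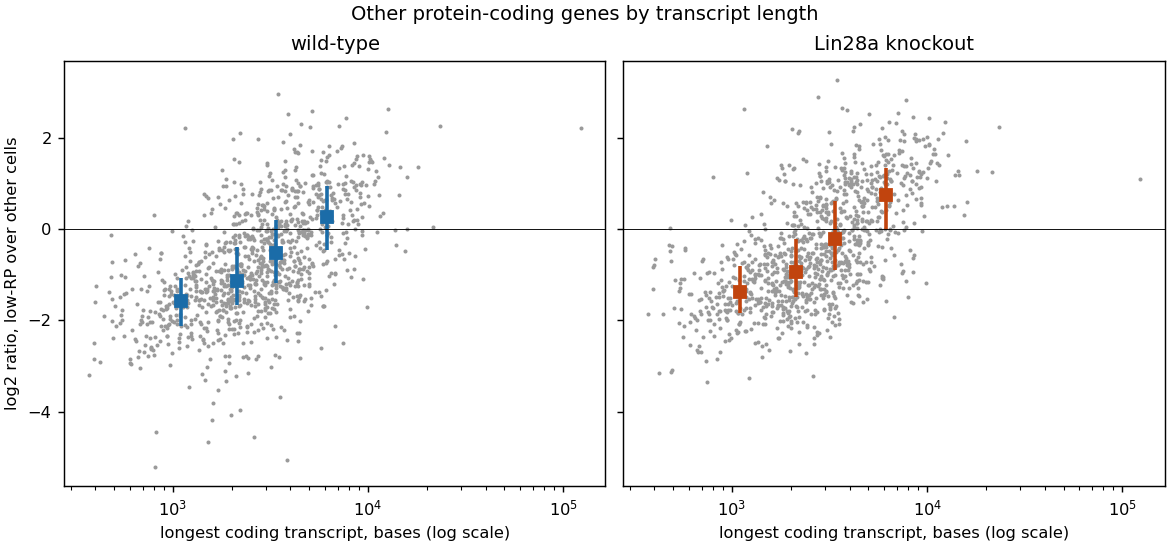
Each grey point is 1 of 1078 protein-coding genes, placed by the length of its longest coding transcript (bases, log scale) and its log2 ratio of CPM in low-RP over other cells, for wild-type (left) and knockout (right). Squares are the medians of 4 equal groups by length, at median ratios from 0.336 to 1.198 in wild-type and from 0.382 to 1.69 in knockout, and bars run from the 25th to the 75th percentile of genes.

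Gene lists chosen by where their products act differed. The lists were not matched for transcript length, which went with the ratios as described above. The list of 24 abundant cytoplasmic messages was lower in both libraries. Its sum was at 0.382 (0.362 to 0.404) of the level of other cells in wild-type and 0.383 (0.372 to 0.393) in knockout, 19 and 20 of its 24 genes were at least 2-fold lower, 0 were higher, and the medians were 0.348 and 0.307, against 48.5% and 39.9% of all genes compared being lower. Actb, cytoplasmic actin, was at 1771 against 5189 CPM and 2247 against 4249 CPM. Hsp90ab1, a cytosolic chaperone, was at 2947 against 5762 CPM and 4633 against 5276 CPM, and in knockout cells it lay above the median gene. The 22 translation genes summed to 0.369 and 0.333, with 16 lower in each library. Eef1a1, the elongation factor that brings tRNA to the ribosome, was at 3105 against 9855 CPM and 2159 against 10431 CPM. Pabpc1, the poly(A)-binding protein, was an exception with ratios of 0.839 and 0.896, above the median gene in both libraries.

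Of 14 large chromatin regulators compared, 6 in wild-type and 10 in knockout low-RP cells were at least 2-fold higher, against 10% and 16.3% of all genes compared, 0 were lower, and all 14 lay above the median gene. Chd4, a remodeler, was 1.56-fold (1.195 to 2.00) and 2.65-fold (2.38 to 2.94) higher. Of 23 speckle and SR genes compared, 8 and 12 were higher and 6 and 4 lower (all genes compared: 10% and 16.3% higher, 48.5% and 39.9% lower), so this list split. Rbm25 was at 1044 against 593 CPM and 1268 against 407 CPM, whereas Srsf2 was at 357 against 747 CPM and 284 against 660 CPM. Of 16 nucleolar genes compared, 1 in wild-type and 6 in knockout cells were at least 2-fold higher and 7 and 3 lower. Of all genes compared, 10% and 16.3% were higher and 48.5% and 39.9% lower, so the wild-type counts lay near these shares. Npm1 was at 1480 against 3643 CPM and 998 against 2498 CPM and Nop56, a snoRNP core protein, at 780 against 368 CPM and 610 against 295 CPM. The median nucleolar gene stood at 1.55 and 1.90 relative to the median of all genes. Of 8 histone genes, 7 in wild-type and 3 in knockout cells were at least 2-fold lower, against 48.5% and 39.9% of all genes compared. The knockout histone share lay near that of all genes. H2afz was at 198 against 1249 CPM and 284 against 1021 CPM.

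Lists of cell state were mixed. Of 16 pluripotency genes compared, 7 in wild-type and 4 in knockout cells were at least 2-fold lower and 1 and 2 higher, which is near or below the 48.5% and 39.9% of all genes compared that were lower, with median ratios of 0.552 and 0.777 and 9 and 11 of the 16 above the median gene. Klf5, a naive pluripotency factor, was at 423 against 542 CPM in wild-type but at 1741 against 681 CPM in knockout cells. The S phase list summed to 0.755 (0.675 to 0.841) and 1.01 (0.959 to 1.07), and the G2/M list to 0.727 and 0.901. Relative to the median gene, the median S phase gene stood at 1.39 and 1.60 and the median G2/M gene at 1.26 and 1.06, so the typical gene of both lists lay above it. Pcna, the replication clamp, was at 132 against 566 CPM and 209 against 357 CPM, and Top2a, a topoisomerase of dividing cells, at 819 against 550 CPM and 828 against 435 CPM, so proliferation genes differed among themselves. Apoptosis genes summed to 0.475 (0.349 to 0.632) and 0.452 (0.387 to 0.525), with 2 and 4 of the 4 genes compared lower, against 48.5% and 39.9% of all genes. The 21 listed p53 targets summed to 1.02 and 1.03, while the 3 with enough counts had median ratios of 0.897 and 0.846. Targets of the integrated stress response summed to 0.560 and 0.610, immediate early genes to 0.739 and 0.625, proteasome subunits to 0.528 and 0.720 (their medians at 0.864 and 1.10 relative to the median gene) and mitochondrial ribosome genes to 0.528 and 0.709. The endoplasmic reticulum and secretory list stood at 0.902 (0.826 to 0.983) in wild-type and 1.12 (1.07 to 1.16) in knockout low-RP cells, led by Slc2a3, a glucose transporter, at 1536 against 702 CPM in the latter.

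The low-RP cells differed among themselves. Each was set against the 95th percentile of other cells at 1000 to 5000 UMIs in the same library for Malat1, mitochondrial, repeat family and rRNA locus shares. Of 23 wild-type low-RP cells, 15, 17, 21 and 22 lay above it in these 4, 11 in all 4 and 0 in none. Of 140 knockout low-RP cells, 62, 85, 95 and 41 did, 12 in all 4 and 9 in none. Exactly 1 of the 4 was high in 1 wild-type and 33 knockout cells, and 35 knockout cells were high in the family but not in mitochondrial transcripts. Over all 83 wild-type low-RP cells the shares of Malat1 and of the family had a Spearman rho of 0.58, and over 221 knockout cells 0.35. In the 23 wild-type cells of 1000 to 5000 UMIs, which include the cell with fibroblast genes, it was -0.06. Malat1 and mitochondrial shares had a rho of 0.39 in wild-type and 0.01 in knockout cells. Among 141 knockout low-RP cells of at least 1000 UMIs, the genes whose shares followed that of Malat1 most closely were Saa3 (rho 0.58), Gm37158 (0.35), Gm47654 (0.35), Gm42669 (0.31) and Gm48216 (0.31). Cells share a library in all of these, and Saa3 shares sequence with Malat1 as shown above.

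The cells next to the limit of 5% had these values. Just inside it, the 43 knockout cells of 4 to 5% RP had 5701 CPM of Malat1, 24145 CPM of the family and 22172 CPM of cytoplasmic messages, and just outside, the 26 cells of 5 to 6% had 4759, 28997 and 26035 CPM. In wild-type, 10 cells just inside and 8 just outside had 6972 and 6579 CPM of Malat1, 41320 and 13344 CPM of the family and 33328 and 43750 CPM of cytoplasmic messages, at unlike median depths of 584 and 4292.5 UMIs. At 1000 to 5000 UMIs in the knockout library, Malat1 ran from 10320 CPM in cells under 2% RP over 5168 CPM at 6 to 8% to 508 CPM at 15% and more, and the family from 47797 over 14425 to 2037 CPM. Cytoplasmic messages were at 13279 CPM under 2% RP, 39414 CPM at 6 to 8% and between 43864 and 46508 CPM above. In the wild-type library there was no cell at 4 to 5% within these bounds and only the cell with fibroblast genes at 3 to 4%. Across that gap, from 9 cells at 2 to 3% to 3 cells at 5 to 6%, the family was at 55239 and 16937 CPM and cytoplasmic messages at 14882 and 46739 CPM.

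**Figure D5:**
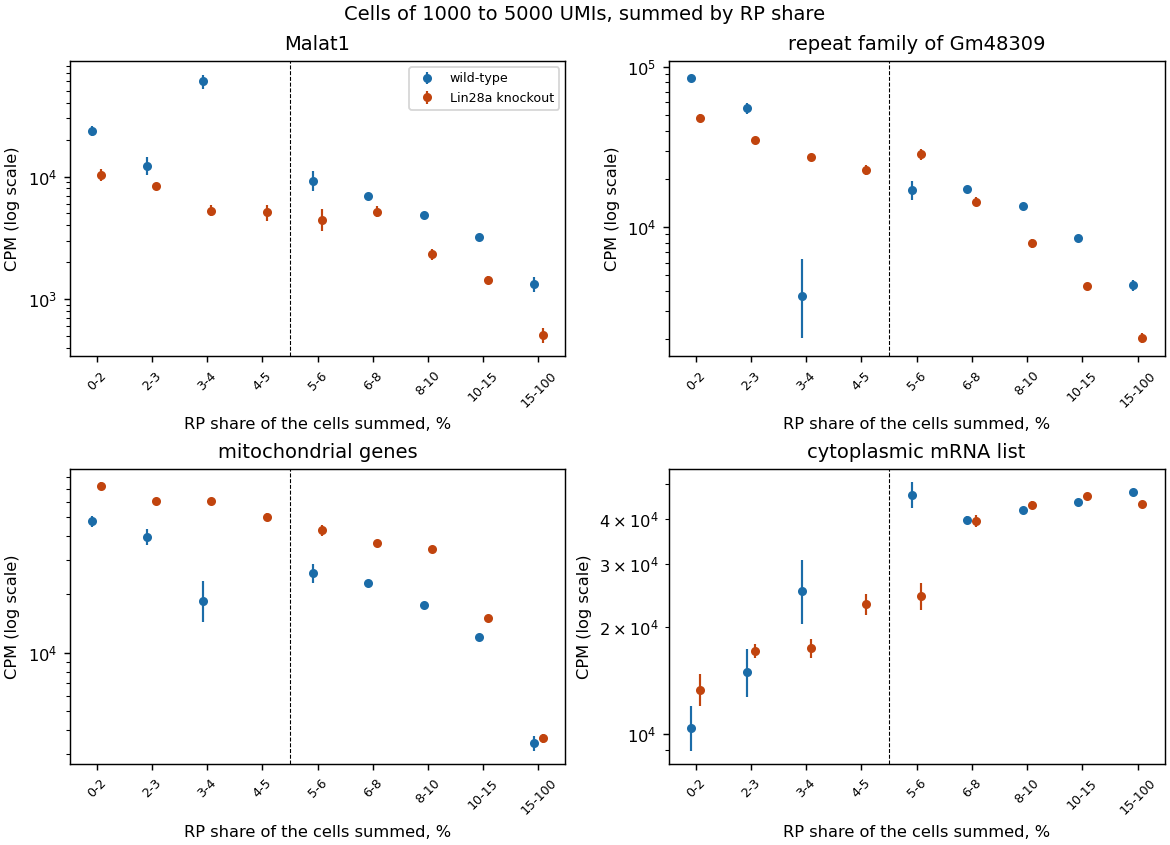
Cells of 1000 to 5000 UMIs were summed by their RP share (horizontal axis, percent); the vertical axes give CPM on a log scale for Malat1, the repeat family, mitochondrial genes and the cytoplasmic list, with exact Poisson intervals as bars, and the dashed line is the limit of 5%. In the knockout library (orange) Malat1 runs from 10320 to 508 CPM from left to right, and the wild-type point (blue) at 3 to 4% is a single cell; the wild-type library had no cell at 4 to 5%.

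The share of low-RP cells differed between depths. Of barcodes with 500 to 1000 UMIs, 42.3% in wild-type and 26.1% in knockout were low in RP, of those with 1000 to 2000 UMIs 31.8% and 51.3%, and of those with 2000 to 5000 UMIs 0.495% (2 cells) and 14.0% (40 cells). Barcodes of 200 to 500 UMIs, below the limit for a cell, were low in RP in 48.0% and 34.6%. Their Malat1 ratio to other barcodes of that depth was 0.899 (0.788 to 1.02) in wild-type and 1.56 (1.36 to 1.79) in knockout, and that of cytoplasmic messages 0.843 and 0.782. Their repeat family ratio was 1.72 (1.61 to 1.84) and 2.53 (2.36 to 2.72), and their mitochondrial ratio 1.59 (1.504 to 1.68) and 1.38 (1.32 to 1.44).

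Between genotypes, low-RP and other cells had like ratios for Malat1 and cytoplasmic messages over all depths and unlike ones for several other groups, and genotype cannot be told apart from library. Knockout over wild-type, Malat1 was at 0.406 (0.380 to 0.435) in low-RP and 0.407 (0.399 to 0.415) in other cells, and the repeat family at 0.524 and 0.468. The rRNA locus was at 0.441 (0.428 to 0.454) in low-RP cells and 0.729 (0.723 to 0.735) in other cells. Cytoplasmic messages were at 1.03 in both. At 1000 to 5000 UMIs the likeness did not hold. Malat1 was then at 0.309 (0.284 to 0.337) in low-RP and 0.367 (0.347 to 0.387) in other cells. Cytoplasmic messages were at 1.30 (1.18 to 1.43) and 1.02 (1.01 to 1.03). For Malat1 both readings depend on the wild-type cell with fibroblast genes. Without that cell Malat1 was at 0.460 in low-RP cells over all depths. At 1000 to 5000 UMIs its wild-type low-RP level was then 19190 CPM, not 23693 CPM, against 7332 CPM in knockout low-RP cells. Over all depths, heat shock genes were at 1.46 (1.31 to 1.63) in low-RP cells and 0.799 (0.791 to 0.807) in other cells, with Hsp90aa1 at 5321 CPM in knockout and 3436 CPM in wild-type low-RP cells. Pluripotency genes were at 1.56 and 1.03, histone genes at 1.61 and 0.983. By gene, 190 of 1377 (13.8%) were at least 2-fold higher and 71 (5.16%) lower in knockout than in wild-type low-RP cells, against 7 (0.508%) and 37 (2.69%) in other cells. This balance depended on the settings, with 126 higher and 113 lower after scaling to a median ratio of 1 and 406 higher and 711 lower with an RP limit of 7%. The low-RP counts rest on 75676 and 306688 UMIs and the others on 11131952 and 8919045, and the part of counting error and depth in this difference was not tested.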

How the data were processed

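The 2 libraries were sequenced as inDrop single-cell RNA-seq, and the authors deposited counts of UMIs by gene and barcode, not normalized, made with a published inDrop pipeline. The submitters' processing notes name Seurat 2.3.4 and mm10, while the aligner, the annotation and the use of strand are not given in the sources used here. UMIs ambiguous between genes numbered 63462 in wild-type and 58924 in knockout. Of 54146 genes, 52480 matched GENCODE release 21 of GRCm38 with their version and 54079 without. The limits of 500 UMIs and 20% mitochondrial UMIs follow the study's methods. Doublets were not called. No column of sample values was left unused.

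UMIs were summed over cells of each library and expressed as CPM (exact Poisson intervals). Shares of cells have exact Clopper-Pearson binomial intervals and ratios exact conditional binomial intervals, all at 95%. These cover counting error only. With 1 library per genotype no test was possible. A gene was compared with an expected count of at least 10 in the low-RP cells of both libraries, given its level over all kept cells of each, RP genes left out. Log2 ratios had 0.5 added to each count, and a fold of 2 was the limit for counts of genes. A count of 0 was given a floor of 3 counts. Named genes were Malat1, Neat1 and Lin28a, up to 5 genes per list with the most UMIs, the 15 largest and 15 smallest ratios ranked by the library closer to 1, and the 5 genes most correlated with Malat1 over low-RP knockout cells of at least 1000 UMIs. The ranking of protein-coding genes alone, and other genes named as examples, were chosen after the values were seen. The cells and the 26 gene lists were chosen with earlier results of these data known. The repeat families followed were not chosen blind to the values either.

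Genes were joined into families where at least 50% of a gene's 31-base words occur in at least 10 genes and at least 25% of the words of the smaller gene are shared. Genes sharing at least 5% of their words with RP genes were a class of their own. Shares of cells with a marker were computed for cells thinned to 500 UMIs. The tools were pandas 2.3.3, scipy 1.17.1, numpy 2.4.6 and matplotlib 3.10.9 under Python 3.11.15, and the calculations were tested on simulated data. Alternatives changed the UMI, mitochondrial, collagen and RP limits, the scaling and the count filter.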

Additional observations from a re-analysis of the deposited data

Results flagged for a closer look

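Over all depths, the libraries lay on opposite sides of 1, counting intervals included, in 2 measures. Other protein-coding genes had a share of UMIs in low-RP over other cells of 0.889 in wild-type and 1.02 in knockout. The summed endoplasmic reticulum and secretory list stood at 0.902 in wild-type and 1.12 in knockout, but at 1000 to 5000 UMIs the wild-type interval spanned 1 (0.953, 0.838 to 1.08). The S phase, heat shock, primitive endoderm and trophoblast lists also lay on opposite sides, but with an interval that spans 1 in at least 1 library. The S phase list at 1000 to 5000 UMIs stood at 0.722 (0.608 to 0.852) in wild-type and 1.17 (1.09 to 1.24) in knockout. With 1 library per genotype, none of these differences was tested.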

How the results depend on the processing

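No paired analysis was possible because each genotype is 1 library. Of 166 values recomputed under the alternatives, 81 stayed within their interval or, for gene counts, within 1.5 times, and 85 moved. The interval was of counting error, except for the cytoplasmic list median, where it was a spread over the genes of the list. Of the ratios 0 reversed, while shares of cells and gene counts could not reverse by the rule used. The balance of genes higher and lower did turn, for low-RP over other cells with scaling and with no filter. Between genotypes it turned with an RP limit of 7% and with no filter. Apart from low-RP over other cells with no filter, described below, the cause was not tested. In what follows ratios are low-RP over other cells, with wild-type before knockout, and gene counts are those past a fold of 2. With at least 1000 UMIs the share of low-RP cells was 1.38% and 10.9%, the wild-type Malat1 ratio 6.37, the mitochondrial ratios 3.10 and 3.53, and gene counts 46 higher and 270 lower, and 73 and 232. Knockout over wild-type low-RP cells, Malat1 was then 0.304, with 93 genes higher and 25 lower. At 1000 to 5000 UMIs the knockout share was 29.0%, the wild-type Malat1 ratio 5.70, the mitochondrial ratios 2.81 and 3.87, gene counts 54 and 267, and 90 and 207, and between genotypes Malat1 was 0.309 with 93 genes higher and 24 lower. A mitochondrial limit of 10% gave mitochondrial ratios of 3.22 and 3.27 and a knockout Malat1 ratio of 4.61. Without the collagen limit Malat1 ratios were 6.22 and 5.74, the knockout mitochondrial ratio 3.72, and between genotypes Malat1 was 0.329 with 125 genes lower. An RP limit of 4% gave a knockout share of 11.1% and mitochondrial ratio of 3.73. An RP limit of 7% gave shares of 7.19% and 17.3%, Malat1 ratios of 2.57 and 4.48, mitochondrial ratios of 2.51 and 3.22, cytoplasmic list medians of 0.724 and 0.445, and gene counts of 272 and 433, and 922 and 1097. Between genotypes Malat1 was then 0.703, with 406 genes higher and 711 lower. CPM over UMIs outside RP genes gave Malat1 ratios of 4.47 and 4.43 and mitochondrial ratios of 3.36 and 3.28. Scaling to a median ratio of 1 gave Malat1 9.44 and 7.83, mitochondrial genes 7.10 and 5.79, cytoplasmic list medians of 0.671 and 0.492, and gene counts of 356 and 278, and 379 and 267. Between genotypes it gave Malat1 0.354, with 126 genes higher and 113 lower. An expected count of 30 gave 27 and 202, and 43 and 171 genes, and between genotypes 46 and 17. With no filter but 1 UMI there were 23877 and 2760, and 19987 and 3471 genes, and between genotypes 2699 and 4118. The median gene was then at log2 2.68 and 1.59 in low-RP over other cells. The 0.5 added to each count weighs more in the smaller low-RP sum. A gene with 0 UMIs there and 1 UMI in other cells thus passes as higher, so these counts do not describe the low-RP cells. The other alternatives were chosen after seeing the data. Means of per-cell shares gave a wild-type Malat1 ratio of 3.93 and mitochondrial ratios of 3.84 and 3.73. Without the wild-type cell rich in fibroblast genes, Malat1 was 4.32, and 0.460 between genotypes. Only cells with no collagen UMI gave Malat1 ratios of 4.58 and 4.61 and a wild-type mitochondrial ratio of 3.87. Depth limits the precision, since low-RP cells hold 75676 UMIs in wild-type and 306688 in knockout.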
